A study of Mus musculus with 12 samples.

Results

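CCR2low macrophages were compared with CCR2hi macrophages, both sorted from infarcted hearts of mice that carry dTomato and Cre recombinase at the Bhlhe41 gene (Bhlhe41dTomato-Cre+/-). The comparison holds the 6 RNA-sequencing libraries whose titles name this genotype, 3 per gate, out of 12 libraries in the series. The other 6 libraries are gates of the same names from wild-type (WT) hearts, also 3 per gate, and served to compare the gate difference between the genotypes. All 12 libraries come from C57BL/6N mice labelled male, after myocardial infarction made by ligating the left anterior descending coronary artery. The plus and minus signs in the genotype name stand for 1 modified copy of Bhlhe41, and the labels name no other allele for Cre to act on and no agent given to the mice. In the Cre libraries the label fields are shifted, so that the strain stands under cell type and the sex under genotype. Genotype and gate were therefore read from the titles. The time after infarction and the number of mice behind a library are not given in the labels, so the p-values below measure the spread between libraries, which may be technical.

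CCR2 is the receptor for the chemokine CCL2, and it is known for bringing blood monocytes into injured tissue. The heart also holds long-lived macrophages with little CCR2, which keep their number largely by local division, take up debris and dying cells, and carry scavenger receptors and complement C1q. BHLHE41 is a basic helix-loop-helix repressor and a paralog of BHLHE40. Both bind the DNA sequence CACGTG, both take part in the circadian feedback loop, and both are known for holding tissue macrophages in their mature, self-renewing state.

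Each Cre library held 17.7 to 19.45 M expected counts (M, 1000000), and 14964 of 53801 listed genes were tested. Mitochondrial genes took 1.71% to 2.05% of the counts in CCR2low and 2.39% to 3.46% in CCR2hi, and the part of this difference in the results was not tested. Xist, the RNA of the inactive X chromosome of females, was at 198, 163 and 119 CPM (counts per 1000000 counts) in CCR2low and 86.2, 75.8 and 72.3 CPM in CCR2hi, which goes against the male label. Ddx3y, a helicase gene of the Y chromosome, was at 23.6, 31.7 and 1.41 CPM in CCR2low and 17.8, 33.9 and 4.28 CPM in CCR2hi. Both libraries numbered 3 were thus low for Ddx3y, so counts of changed genes were also computed without that pair, and are given for the lists below whose number of higher or lower genes moved by over 1.5-fold.

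The genes that define the comparison were read first. Bhlhe41 itself was at 23.9, 26.0 and 13.3 CPM in the CCR2low libraries and at 7.67, 9.45 and 6.81 CPM in the CCR2hi libraries, so every CCR2low library lay above every CCR2hi library. Gates without overlap, in either direction, were common: they were found for 9176 of the genes tested (61.3%). Separation of the gates, here and below, is to be read beside that share. Its log2 gate difference, CCR2low minus CCR2hi, was 1.40 ± 0.25 (SE; n = 3 per gate; edgeR's quasi-likelihood test, adjusted p = 0.000383) per total RNA, that is with libraries scaled to their overall RNA. Scaled instead to macrophage genes, as described below, the difference was -0.44 and not called (adjusted p = 0.339). Bhlhe40 was at 418, 471 and 450 CPM against 411, 407 and 473 CPM, a log2 difference of 0.05 ± 0.16 per total RNA (adjusted p = 0.806), and its gates overlapped; per macrophage RNA it was lower in CCR2low (-1.80, adjusted p = 0.000438). Per transcript length Bhlhe40 was the more abundant of the paralogs in both gates, with a mean of 224 ± 27.4 TPM (length-scaled abundance in parts per 1000000; SD, n = 3) in CCR2low against 6.14 ± 2.84 TPM for Bhlhe41. These values do not check the modified copy, because the labels do not say where in Bhlhe41 the insertion lies. Per total RNA, Ccr2 mRNA did not separate the gates that are named for its protein: it was at 72.9, 60.8 and 96.7 CPM in CCR2low and 70.8, 71.7 and 89.4 CPM in CCR2hi, a log2 difference of -0.01 ± 0.30 (adjusted p = 0.983). Per macrophage RNA Ccr2 was lower in CCR2low, with a log2 difference of -1.89 (adjusted p = 3.34e-05).

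The gates differed in how much macrophage RNA they held. Genes of macrophage identity, 18 in all and including the receptors Csf1r and Adgre1, took 3.63%, 3.36% and 3.66% of the counts in CCR2low but 0.909%, 0.984% and 1.18% in CCR2hi. Fibroblast markers, also 18, took 0.300%, 0.620% and 0.296% against 5.69%, 4.83% and 4.49%. Endothelial markers took 0.0794% to 0.156% against 0.533% to 0.713%, and mural cell markers, those of pericytes and smooth muscle, took 0.0153% to 0.0299% against 0.197% to 0.210%. None of these 4 lists overlapped between gates, and none had a member without counts in the 6 libraries. The defining fibroblast gene Col1a1 was thus present in all CCR2low libraries, at 444, 1051 and 567 CPM, and the defining macrophage gene Csf1r in all CCR2hi libraries, at 379.5, 361.6 and 486.3 CPM. An exact two-sided permutation test of each share gave p = 0.1, the smallest value that 3 against 3 libraries allow. In sorted bulk samples like these, fewer cells of a type and less RNA per cell cannot be told apart.

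**Figure D1:**
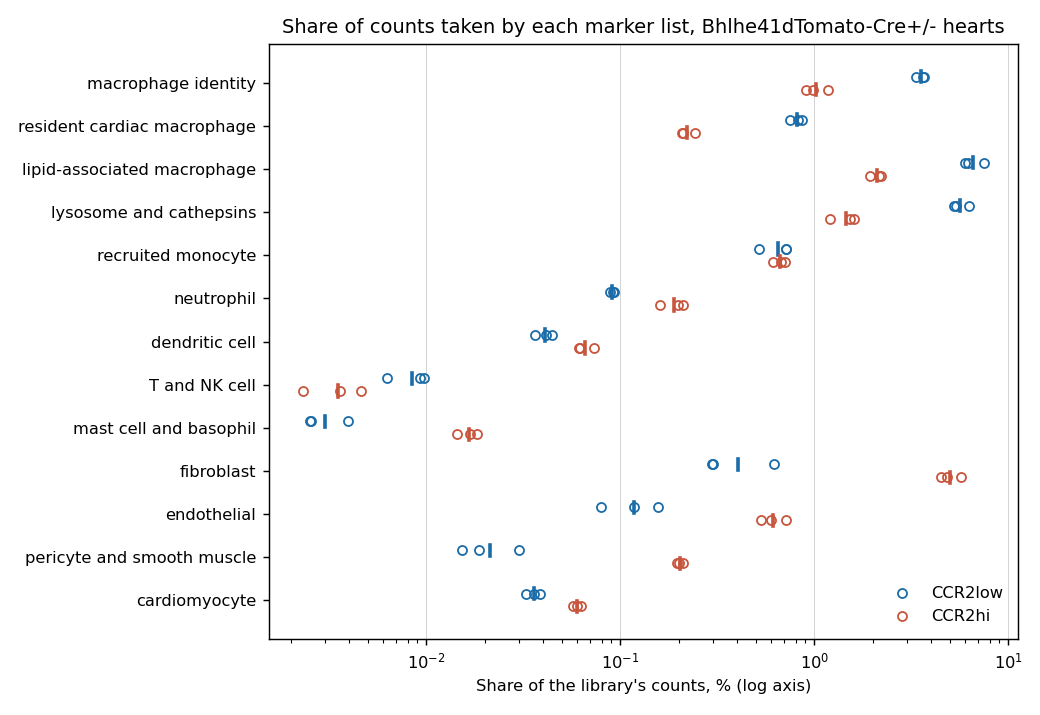
Share of all counts, in percent on a log axis, taken by each marker list in the 3 CCR2low and 3 CCR2hi libraries of Bhlhe41dTomato-Cre+/- hearts; each point is a library and each bar the mean. The identity, resident and lipid-associated macrophage lists sit higher in CCR2low (identity genes 3.36% to 3.66% against 0.909% to 1.18%), fibroblast, endothelial and mural lists sit higher in CCR2hi, and the recruited monocyte list overlaps.

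Because of this, each gene was compared on 2 scales. Per total RNA, with trimmed-mean scaling, the question is whether a gene makes up more of all RNA in a gate. Per macrophage RNA, every library was scaled so that the mean log2 CPM of the 18 macrophage identity genes is the same, and the question becomes whether a gene is higher beside those genes. On the first scale 8094 genes differed (54.1% of those tested), of which 3733 were higher in CCR2low (24.9%) and 4361 lower (29.1%). Changes over 8-fold were mostly downward, with 54 genes higher and 830 lower. Plain library size scaling, which moved the median of all genes from -0.01 to -0.21, left 2533 higher and 5384 lower. On the second scale the median of all genes was -1.87, 13215 genes were lower in CCR2low (88.3%) and only 86 were higher (0.575%). All 86 were also higher per total RNA. Conversely, 2400 of the 3733 genes that were higher per total RNA were lower per macrophage RNA, so for most of the genes called higher the direction depended on the scale. Unless a scale is named, values below are per total RNA. Counts of list members below are to be read beside the shares over all genes. These were 24.9% higher and 29.1% lower per total RNA, and 0.575% higher and 88.3% lower per macrophage RNA.

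**Figure D2:**
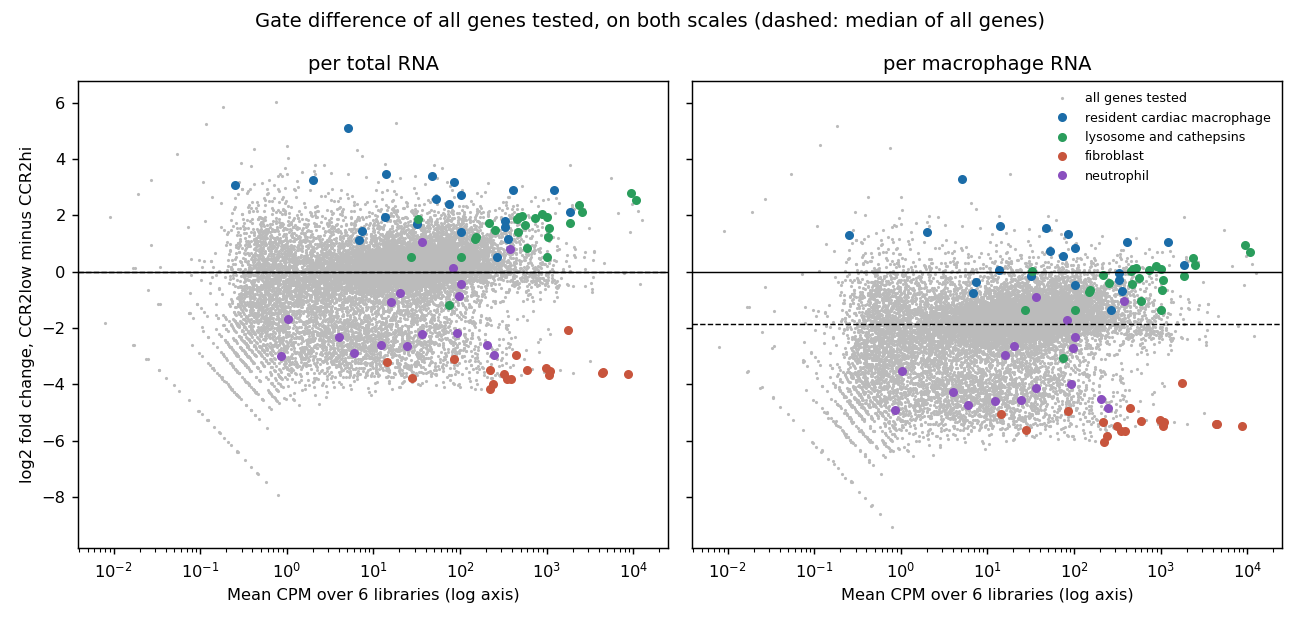
Log2 gate difference (CCR2low minus CCR2hi) of the 14964 tested genes against mean CPM on a log axis, per total RNA and per macrophage RNA. Members of the resident cardiac macrophage, lysosome and cathepsin, fibroblast and neutrophil lists are coloured, whether called or not. The cloud is centred near 0 (median -0.01) on the first scale and near -1.87 on the second, where 86 genes remain higher in CCR2low.

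Every macrophage identity gene was higher in CCR2low per total RNA: 18 of 18, with a median log2 difference of 1.92. Adgre1, which encodes the surface protein F4/80, was at 1191, 1102 and 1065 CPM in CCR2low and 179.9, 211.1 and 202.2 CPM in CCR2hi, a log2 difference of 2.50 ± 0.27 (adjusted p = 5.09e-06). Csf1r, the receptor for the growth factor that macrophages need to survive, was at 1377, 1242 and 1464 CPM in CCR2low, a log2 difference of 1.73 ± 0.25 (adjusted p = 4.74e-05). C1qa, a subunit of complement C1q, was at 2229, 1964 and 2885 CPM against 360.8, 446.4 and 495.3 CPM, a log2 difference of 2.44 (adjusted p = 2.33e-05). In all 3 genes the lowest CCR2low library exceeded the highest CCR2hi library by a wide margin. Per macrophage RNA, where this list is the reference, its median was 0.06, with 3 members higher and 1 lower (none of either without the pair numbered 3).

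Genes of resident cardiac macrophages were higher in CCR2low as a group: 21 of the 21 tested (of 22 members), with a median log2 difference of 2.40 beside -0.01 over all genes. Without the pair numbered 3, 18 of 21 were called. Per macrophage RNA 9 of the 21 were higher and 2 lower (1 lower without the pair numbered 3), with a median of 0.54 beside -1.87 over all genes. Scavenger receptors were among the genes with the widest separation. Marco (chr1:120474538-120505024), which binds bacteria and modified lipoprotein and stands on the list of cavity macrophages rather than this one, was at 48.6, 33.5 and 25.1 CPM in CCR2low and 0.48, 1.38 and 0.876 CPM in CCR2hi. Its log2 difference was 5.28 ± 0.65 (adjusted p = 1.96e-05) per total RNA and 3.46 (adjusted p = 2.95e-05) per macrophage RNA. Vsig4 (chrX:96247203-96293438), a complement receptor of the resident list that captures opsonised particles, was at 11.9, 9.60 and 7.94 CPM against 0.048, 0.62 and 0.155 CPM, so that the CCR2hi level rests on few counts and the size of the fold is poorly fixed; its log2 difference was 5.11 ± 0.63 (adjusted p = 1.34e-05). For both genes, no CCR2low library came near a CCR2hi library.

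Cd163 (chr6:124304656-124330527), the hemoglobin-haptoglobin receptor, was at 113, 103 and 44.6 CPM in CCR2low and 7.82, 10.2 and 7.11 CPM in CCR2hi, a log2 difference of 3.38 ± 0.59 (adjusted p = 0.000381) and, per macrophage RNA, 1.55 (adjusted p = 0.0069). Folr2, a folate receptor, was at 130.5, 141.7 and 185 CPM against 11.1, 19.3 and 19.6 CPM, a log2 difference of 3.19 ± 0.40 (adjusted p = 1.7e-05). Mrc1, the mannose receptor, was at 897, 745 and 542 CPM against 97.8, 101.7 and 94.9 CPM, a log2 difference of 2.89 ± 0.22 (adjusted p = 2.91e-07). In Cd163 and Mrc1 the third CCR2low library was the lowest of its gate, yet it still lay far above all CCR2hi libraries. Stab1, a receptor that clears matrix fragments and dying cells, had a log2 difference of 2.89 ± 0.32 (adjusted p = 4.8e-06) and was the most abundant of these receptors per transcript length in CCR2low, at 538 ± 83.6 TPM beside 241 ± 20.6 TPM for Folr2, 186 ± 59.4 TPM for Mrc1 and 27.8 ± 10.8 TPM for Marco.

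Secreted proteins and other receptors moved in the same direction but not by the same size. Cd5l, a secreted scavenger protein from the cavity list, was at 79.9, 105.3 and 160.4 CPM in CCR2low and 4.51, 12.3 and 9.90 CPM in CCR2hi, a log2 difference of 3.70 ± 0.43 (adjusted p = 7.99e-06). Fcna, a ficolin of the lectin pathway of complement and a member of the resident list like Timd4 and Lyve1, was at 27.0, 26.0 and 24.8 CPM against 2.06, 2.58 and 2.32 CPM, a log2 difference of 3.48 ± 0.29 (adjusted p = 5.35e-07). Timd4, a receptor for phosphatidylserine on dying cells, was at only 2.30, 3.76 and 4.88 CPM in CCR2low, yet above the 0.309 to 0.477 CPM of CCR2hi (log2 difference 3.25 ± 0.46, adjusted p = 4.73e-05). Lyve1, the hyaluronan receptor often used to mark resident macrophages, was at 27.8, 21.3 and 15.3 CPM against 7.15, 5.20 and 4.64 CPM. Its log2 difference of 1.92 ± 0.34 (adjusted p = 0.000307) vanished per macrophage RNA, at 0.05 (adjusted p = 0.905). Lyve1 is also a marker of lymphatic endothelium, and it was the 1 member of the endothelial list that was higher in CCR2low.

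The largest upward changes among called genes also included Alox15, Htr2b, Stra6l and Rnf128. Alox15, a lipoxygenase that oxidises polyunsaturated fatty acids, was at 13.3, 9.60 and 14.2 CPM in CCR2low and 0.528, 0.811 and 0.516 CPM in CCR2hi, a log2 difference of 4.30 ± 0.70 (adjusted p = 0.000184). Htr2b, a serotonin receptor, was at 14.6, 13.2 and 13.8 CPM against 0.719, 1.15 and 0.516 CPM, a log2 difference of 4.11 ± 0.23 (adjusted p = 8.07e-08). Rnf128, a ubiquitin ligase of the endosome, was at 97.0, 94.4 and 89.2 CPM against 4.41, 7.06 and 9.02 CPM, a log2 difference of 3.78 ± 0.27 (adjusted p = 2.2e-07). All 4 stayed higher per macrophage RNA, by 2.43, 2.24, 1.99 and 1.96 on the log2 scale. So did Pf4, a chemokine best known from platelets, and Cd22, a sialic acid lectin best known from B cells. Pf4 was at 777, 737 and 1245 CPM against 64.9, 129.4 and 141.6 CPM, and Cd22 at 32.8, 33.1 and 46.0 CPM against 2.78, 2.96 and 5.41 CPM. The platelet and B cell lists to which they belong did not move with them: of 9 tested erythroid and platelet genes 2 were higher and 2 lower (7 lower with the replicate block), and of 10 B cell genes 2 were higher and 1 lower (2 lower with the block, none without the pair numbered 3).

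**Figure D3:**
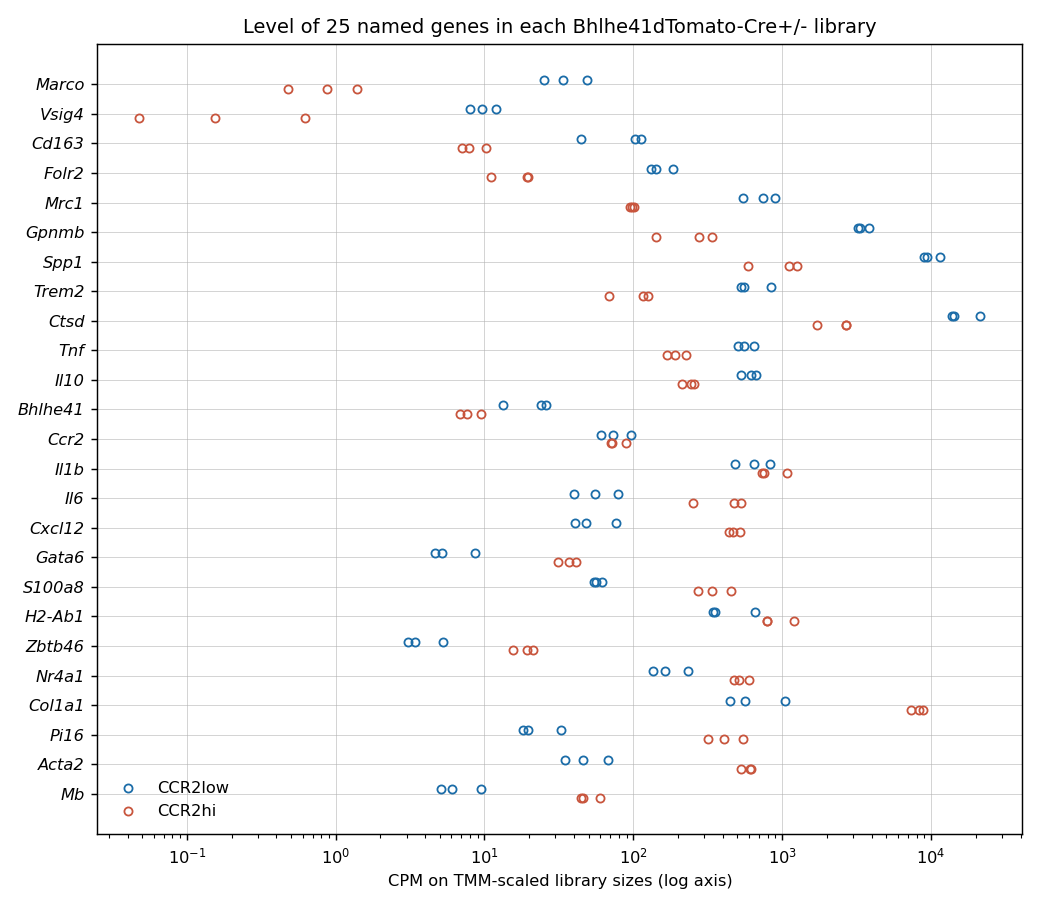
Level of 25 genes, in CPM on a log axis, in each of the 3 CCR2low and 3 CCR2hi libraries of Bhlhe41dTomato-Cre+/- hearts; each point is a library. Marco lies at 25.1 to 48.6 CPM in CCR2low and 0.48 to 1.38 CPM in CCR2hi, while Ccr2 overlaps between the gates.

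Lipid-associated macrophage genes, which mark macrophages loaded with debris and cholesterol, were higher in 17 of 22 cases and lower in 1, with a median log2 difference of 1.95. The 1 lower member was Fabp4, a fatty acid carrier also expressed in fat and capillaries, with a log2 difference of -2.40; it was chosen after its values were seen. Per macrophage RNA the list split into 7 higher and 6 lower members. Gpnmb, a lysosomal membrane glycoprotein, was at 3342, 3253 and 3812 CPM in CCR2low and 141.5, 339.9 and 277.5 CPM in CCR2hi, a log2 difference of 3.78 ± 0.34 (adjusted p = 8.63e-07) and, per macrophage RNA, 1.94 (adjusted p = 3.45e-05). Spp1, which encodes the matrix protein osteopontin, was at 9391, 8996 and 11460 CPM against 588.9, 1262 and 1110 CPM, and its per-macrophage log2 difference was 1.49 (adjusted p = 0.00111). Mmp12, a macrophage elastase, was at 364.5, 359.7 and 420.7 CPM against 32.6, 51.5 and 46.4 CPM, with 1.28 per macrophage RNA (adjusted p = 0.000468). Trem2, a lipid-sensing receptor, had a log2 difference of 2.63 ± 0.33 per total RNA (adjusted p = 1.58e-05). Its per-macrophage difference of 0.77 (adjusted p = 0.0187) was not called without CCR2low library 3 (0.66) or without CCR2hi library 1 (0.63) or without the pair numbered 3 (0.69). Apoe, the apolipoprotein that carries cholesterol out of macrophages, had the highest TPM of the named genes in both gates; in CCR2low it was at 18370, 15000 and 21760 CPM, and its per-macrophage difference of 0.28 was not called (adjusted p = 0.338).

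Lysosomal genes moved with this list. Of 25, 24 were higher in CCR2low and 1 lower, with a median log2 difference of 1.72; per macrophage RNA 2 were higher (none without the pair numbered 3) and 6 lower, with a median of -0.14. Ctsb, a cysteine protease of the lysosome, was at 16880, 16420 and 21700 CPM in CCR2low and 2369, 3357 and 3615 CPM in CCR2hi, a log2 difference of 2.56 ± 0.21 (adjusted p = 4.69e-07). Ctsd, the lysosomal aspartyl protease, had 2.81 ± 0.24 (adjusted p = 6.67e-07). Lamp1, the main glycoprotein of the lysosomal membrane, was at 2810, 2743 and 3138 CPM against 791.4, 910.4 and 923 CPM, a log2 difference of 1.73 ± 0.13 (adjusted p = 2.53e-07). The 1 member that was lower was Ctsk, a collagen-degrading cathepsin, at 53.7, 43.3 and 42.5 CPM against 129.6, 110 and 74.0 CPM (log2 difference -1.17 ± 0.23, adjusted p = 0.000635).

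The promoters of these genes were searched for CACGTG, the sequence that BHLHE41 and BHLHE40, and also other factors of their class, bind. Windows ran from 250 bases before to 50 after each RefSeq start (build GRCm38.p6), and since CACGTG is its own reverse complement a match counts on both strands. Of 25 lysosomal genes 18 were matched to a promoter, and 6 of them (33.3%) held CACGTG, beside 1263 of 11077 tested genes with a promoter (11.4%) and 7.15% of all 32851 promoters. Among called genes the share was 14.1% for those higher in CCR2low and 8.9% for those lower. Among the 63 matched of the 86 genes that were higher per macrophage RNA it was 6.35%, 4 genes. Lamp1 held the most copies on the list, 4, and its stretch of 250 bases before the start is shown for that reason (chr8:13158911-13159160, plus strand, CACGTG in capitals); the copies begin 61, 45, 28 and 15 bases before the start.
Lamp1: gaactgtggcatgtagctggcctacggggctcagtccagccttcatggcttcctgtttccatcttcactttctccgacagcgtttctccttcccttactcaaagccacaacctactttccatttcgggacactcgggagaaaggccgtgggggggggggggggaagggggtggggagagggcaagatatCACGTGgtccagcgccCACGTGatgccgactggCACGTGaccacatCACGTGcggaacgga
These matches describe letters in a window; binding there was not measured.

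Iron and heme genes followed the same direction per total RNA: of 25 genes of the NRF2, heme and iron list 17 were higher in CCR2low and 3 lower, with a median log2 difference of 1.19. Per macrophage RNA 2 were higher (1 without the pair numbered 3) and 10 lower, with a median of -0.69. Hmox1, which breaks down heme, was at 4338, 4556 and 4765 CPM against 1746, 1679 and 1295 CPM, a log2 difference of 1.53 ± 0.27 (adjusted p = 0.000314). Slc40a1, the iron exporter ferroportin, was at 45.4, 41.9 and 83.5 CPM against 9.35, 8.54 and 9.69 CPM, a log2 difference of 2.63 ± 0.26 (adjusted p = 2.24e-06). Per macrophage RNA Hmox1 was not called (-0.36, adjusted p = 0.471). The per-macrophage difference of Slc40a1 (0.72, adjusted p = 0.0392) was not called without Cre CCR2low library 3 (0.47), Cre CCR2hi library 2 (0.68), Cre CCR2hi library 3 (0.64), any 1 of the WT CCR2low libraries (0.72 each), the pair numbered 3 (0.39) or the low-count filter (0.72).

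The 3 TAM receptors, which recognise dying cells through bridging proteins, did not move together. Mertk was at 131.2, 105.1 and 105.6 CPM in CCR2low and 22.1, 19.1 and 25.1 CPM in CCR2hi, a log2 difference of 2.37 ± 0.23 (adjusted p = 1.77e-06). Axl went the other way, at 117.8, 161.8 and 171.1 CPM against 614.4, 555.3 and 513.6 CPM (log2 difference -1.90 ± 0.19, adjusted p = 1.82e-06). Tyro3 was at 1.71, 3.27 and 0.882 CPM against 19.7, 19.8 and 19.3 CPM (log2 difference -3.31 ± 0.30, adjusted p = 1.08e-06). Per transcript length, Axl at 53.6 ± 8.55 TPM and Mertk at 35.9 ± 6.94 TPM were the main pair in CCR2low, while in CCR2hi Axl stood at 244 ± 28.4 TPM beside 8.13 ± 1.13 TPM for Mertk. Axl and Tyro3 are also expressed by fibroblasts, whose marker share was higher in CCR2hi, and the part of those cells was not tested. Across the efferocytosis and lipid efflux list 15 of 27 genes were higher and 5 lower per total RNA. Per macrophage RNA 3 were higher and 18 lower, beside 88.3% lower over all genes.

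Genes of large cavity macrophages, the macrophages of the peritoneal and pleural spaces, split. Of 17 such genes 6 were higher in CCR2low (Marco, Alox15, Cd5l, Saa3, Naip1 and Cxcl13) and 10 lower. Gata6, the transcription factor that defines these cells, was at 4.66, 8.67 and 5.17 CPM in CCR2low and 41.3, 31.2 and 37.0 CPM in CCR2hi, a log2 difference of -2.56 ± 0.21 (adjusted p = 5.08e-07). Icam2, an adhesion protein of these cells and of endothelium, was at 22.7, 29.4 and 25.6 CPM against 98.4, 90.1 and 98.7 CPM (log2 difference -1.89 ± 0.23, adjusted p = 1.18e-05). The defining transcription factor of the list was thus lower in CCR2low while several of its scavenger and lipid genes were higher. Fibroblast, endothelial and mural marker shares were also higher in CCR2hi, and the part of those cells in the lower genes was not tested.

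Cytokines divided by gene rather than by class. Of 29 inflammatory cytokines and chemokines 15 were higher in CCR2low and 9 lower per total RNA, with a median log2 difference of 0.71. Per macrophage RNA none was higher and 20 were lower, beside 88.3% lower over all genes. Tnf, the early inflammatory cytokine, was at 553.6, 507.5 and 650.4 CPM in CCR2low and 168.4, 189.9 and 224.4 CPM in CCR2hi, a log2 difference of 1.55 ± 0.18 (adjusted p = 8.03e-06). Il10, which restrains inflammation, was at 664, 533 and 620 CPM against 213.5, 257 and 245 CPM, a log2 difference of 1.34 ± 0.20 (adjusted p = 6.31e-05). Per macrophage RNA neither was called, with log2 differences of -0.31 for Tnf (adjusted p = 0.348) and -0.52 for Il10 (adjusted p = 0.224). Il10 was, however, called lower without WT CCR2hi library 1 (-0.52, adjusted p = 0.00433) and in the 6 Cre libraries alone. Arg1, an arginase of alternatively activated macrophages, was at 631, 624 and 1010 CPM against 89.2, 138.5 and 208.5 CPM, a log2 difference of 2.38 ± 0.37 (adjusted p = 9.54e-05).

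Il1b showed no called difference, at 647, 482 and 833 CPM against 758, 733 and 1078 CPM (log2 difference -0.39 ± 0.22, adjusted p = 0.154). Without CCR2low library 3 it was lower by the test (-0.57, adjusted p = 0.0461), and it was also called lower under library size scaling and in the TPM fit. Il6, an inflammatory cytokine also made by fibroblasts, was lower in CCR2low, at 55.0, 79.2 and 39.7 CPM against 474.7, 533.2 and 251.7 CPM (log2 difference -2.86 ± 0.55, adjusted p = 0.000751). Csf2, the growth factor GM-CSF, was at 0.428, 1.15 and 0.706 CPM against 13.8, 14.1 and 5.72 CPM (log2 difference -3.87 ± 0.82, adjusted p = 0.00123). Cxcl12, a stromal chemokine, was at 47.9, 76.1 and 40.3 CPM against 523, 441 and 465 CPM (log2 difference -3.12 ± 0.21, adjusted p = 1.61e-07). The 3 genes that were lower moved with the fibroblast share, and the part of those cells was not tested.

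Markers of recruited monocytes did not separate the gates as a list: 5 of 22 were higher in CCR2low and 7 lower, the median log2 difference was -0.12, and their share of counts overlapped (0.521% to 0.717% against 0.612% to 0.703%; exact permutation p = 1.0). Without the pair numbered 3 the split was 2 higher and 4 lower. F13a1, the transglutaminase subunit of coagulation factor XIII, was at 846, 644 and 550 CPM in CCR2low and 143, 128 and 134 CPM in CCR2hi (log2 difference 2.33 ± 0.24, adjusted p = 3.02e-06). Ace, which makes angiotensin II and marks patrolling monocytes as well as endothelium, was at 41.8, 69.2 and 35.8 CPM against 450, 372 and 269 CPM (log2 difference -2.89 ± 0.28, adjusted p = 1.77e-06).

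Neutrophil genes were lower in CCR2low: 11 of 17 tested were lower and 2 higher (Mmp8 and Clec4d; 1 without the pair numbered 3), with a median log2 difference of -2.18. S100a8, a subunit of the antimicrobial protein calprotectin, was at 61.8, 54.7 and 56.2 CPM in CCR2low and 454, 273 and 336 CPM in CCR2hi (log2 difference -2.62 ± 0.52, adjusted p = 0.00102). Cxcr2, the chemokine receptor that brings neutrophils in, was at 0.589, 1.47 and 2.18 CPM against 9.16, 7.54 and 14.7 CPM (log2 difference -2.90 ± 0.49, adjusted p = 0.000227). All 7 tested mast cell genes were lower, with a median of -2.40, among them Hdc, which makes histamine, at 13.6, 24.98 and 21.3 CPM against 103, 95.1 and 117 CPM (log2 difference -2.40 ± 0.28, adjusted p = 8.74e-06).

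Dendritic cell genes leaned lower in CCR2low, 7 lower and 3 higher of 18, with a median log2 difference of -0.68. Zbtb46, the transcription factor that marks conventional dendritic cells and endothelium, was at 3.43, 5.29 and 3.06 CPM against 21.1, 19.3 and 15.5 CPM (log2 difference -2.24 ± 0.21, adjusted p = 1.49e-06). Genes of MHC class II antigen presentation were 4 higher and 6 lower of 15. H2-Ab1, a class II beta chain, was at 352, 344 and 661 CPM against 795, 794 and 1202 CPM, a log2 difference of -1.04 ± 0.34 (adjusted p = 0.0187). That call was lost without CCR2low library 1 (-0.88, adjusted p = 0.078), CCR2low library 2 (-0.87, adjusted p = 0.0792) or CCR2hi library 3 (-0.82, adjusted p = 0.0741). Cd74, the class II invariant chain, was not called (-0.50 ± 0.35, adjusted p = 0.242). Of 16 tested T and natural killer cell genes 2 were higher and 7 lower (4 lower without the pair numbered 3), and the higher pair was Cd4 and Il7r, which macrophages and monocytes can also express.

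Structural genes gave the other pole of the comparison. All 18 fibroblast genes were lower in CCR2low, with a median log2 difference of -3.58, and so were 22 of 23 genes of activated fibroblasts and scar matrix (median -3.44). Col1a1, the main collagen of the scar, was at 444, 1051 and 567 CPM in CCR2low and 8811, 7350 and 8331 CPM in CCR2hi (log2 difference -3.57 ± 0.33, adjusted p = 1.33e-06). Pi16, which marks a fibroblast progenitor state of the adventitia, was at 18.04, 32.8 and 19.5 CPM against 545, 409 and 320 CPM (log2 difference -4.18 ± 0.26, adjusted p = 1.02e-07). Tcf21, the transcription factor of cardiac fibroblasts, was at 2.57, 5.56 and 3.06 CPM against 51.6, 54.9 and 49.0 CPM (log2 difference -3.79 ± 0.24, adjusted p = 1.1e-07). In each of these genes the second CCR2low library was the highest of its gate, as it was for the fibroblast share, and the gates did not overlap. Postn, the matricellular protein periostin of activated fibroblasts, was at 135, 324 and 64.7 CPM against 2451, 2559 and 968 CPM, so both libraries numbered 3 were the lowest of their gates (log2 difference -3.51 ± 0.54, adjusted p = 0.000115).

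Vessel and muscle genes were lower too. All 14 mural genes were lower (median -2.95), among them Acta2, smooth muscle actin, at 34.9, 67.7 and 46.1 CPM against 533, 618 and 609 CPM (log2 difference -3.57 ± 0.23, adjusted p = 1.32e-07). Of 17 endothelial genes 16 were lower (median -2.14), among them Pecam1, the junction protein CD31, at 140, 184 and 86.9 CPM against 627, 465 and 521 CPM (log2 difference -1.97 ± 0.26, adjusted p = 2.62e-05). Of 21 cardiomyocyte genes 20 were lower (median -2.32; 14 lower without the pair numbered 3). Mb, the oxygen-binding protein myoglobin, was at 5.14, 6.05 and 9.52 CPM against 44.6, 45.6 and 59.5 CPM (log2 difference -2.85 ± 0.28, adjusted p = 1.74e-06). The share of counts in the whole cardiomyocyte list was small in both gates, 0.0327% to 0.0386% against 0.0569% to 0.0627%, so these differences concern traces of muscle RNA.

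The largest downward changes belonged to genes of stroma and signalling. Cyp1a1, a target of the aryl hydrocarbon receptor, was at 0.857, 0.982 and 0.706 CPM in CCR2low and 32.2, 8.54 and 12.4 CPM in CCR2hi, a log2 difference of -4.37 ± 0.50 (adjusted p = 7.99e-06), and its 3 CCR2hi libraries differed widely among themselves. Ebf2, Nkd2, Col9a2, Cthrc1, Cilp and Clec11a followed with log2 differences of -4.26, -4.24, -4.18, -4.17, -4.16 and -4.16. Cthrc1 and Cilp are matrix genes of cardiac scar fibroblasts, and Col9a2 encodes a collagen chain.

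Matrix proteases and their inhibitors split. Of 25 metalloprotease and TIMP genes 7 were higher in CCR2low and 17 lower, with a median log2 difference of -2.75 (3 and 20 per macrophage RNA). Beside Mmp12, Mmp13, a collagenase, was higher, at 42.0, 38.9 and 31.0 CPM against 10.1, 9.97 and 8.97 CPM (log2 difference 1.94 ± 0.21, adjusted p = 5.29e-06). Mmp2, a gelatinase of fibroblasts, was lower, at 24.8, 52.3 and 25.2 CPM against 494, 358 and 339 CPM (log2 difference -3.54 ± 0.30, adjusted p = 6.37e-07). Timp1, an inhibitor of these proteases, was at 50.2, 77.8 and 70.4 CPM against 594, 659 and 612 CPM (log2 difference -3.23 ± 0.35, adjusted p = 4.28e-06). Of 27 growth factor genes 7 were higher and 15 lower, and the lower ones included Bmp6, a bone morphogenetic protein, at 4.23, 5.78 and 3.41 CPM against 52.1, 38.9 and 51.5 CPM (log2 difference -3.40 ± 0.26, adjusted p = 3.03e-07).

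Immediate early and stress genes were lower in CCR2low, 16 of 30 against 2 higher, with a median log2 difference of -0.73. Egr1, a transcription factor induced within minutes of stimulation, was at 354, 345 and 448 CPM against 998, 742 and 1304 CPM (log2 difference -1.41 ± 0.21, adjusted p = 7.82e-05). Nr4a1, a nuclear receptor induced in the same way, was at 135, 163 and 233 CPM against 515, 475 and 601 CPM (log2 difference -1.58 ± 0.19, adjusted p = 1.19e-05). Complement genes were 12 higher and 9 lower of 22, and 4 higher (1 without the pair numbered 3) and 13 lower per macrophage RNA. C3, the central component, was lower, at 392, 463 and 341 CPM against 2381, 1279 and 1311 CPM (log2 difference -2.06 ± 0.23, adjusted p = 5.16e-06), while the receptor genes C3ar1 and C5ar1 were higher by 2.64 and 1.39 on the log2 scale.

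Most proliferation genes did not differ. Of 35 cell cycle genes 2 were higher and 3 lower (4 and 5 with the replicate block), with a median log2 difference of -0.05. Top2a, a topoisomerase of dividing cells, was not called (0.17 ± 0.25, adjusted p = 0.6), whereas Mki67, the proliferation antigen Ki-67, was at 103, 107 and 67.8 CPM in CCR2low against 30.6, 42.4 and 30.2 CPM (log2 difference 1.43 ± 0.23, adjusted p = 0.000144). Of 21 clock genes 2 were higher (1 with the block or without the pair numbered 3) and 6 lower. Over all genes 24.9% were higher and 29.1% lower, so the lower count is near that share. Arntl, the activator BMAL1 of the clock, was at 12.3, 13.4 and 7.996 CPM against 33.0, 32.7 and 20.9 CPM (log2 difference -1.36 ± 0.22, adjusted p = 0.000153). Of 41 genes of oxidative phosphorylation 11 were higher and none lower (4 and 1 without the pair numbered 3), but the median of 0.21 changed sign under library size scaling and in the TPM fit, so no direction is given for that list. The same held for the 27 interferon response genes, 8 higher and 1 lower (none lower without the pair numbered 3) with a median of 0.19. Of 28 glycolysis genes 14 were higher and 3 lower, with 4 to 16 higher over the alternatives run. Per macrophage RNA none was higher and 25 were lower, which is near the 88.3% lower over all genes.

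**Figure D4:**
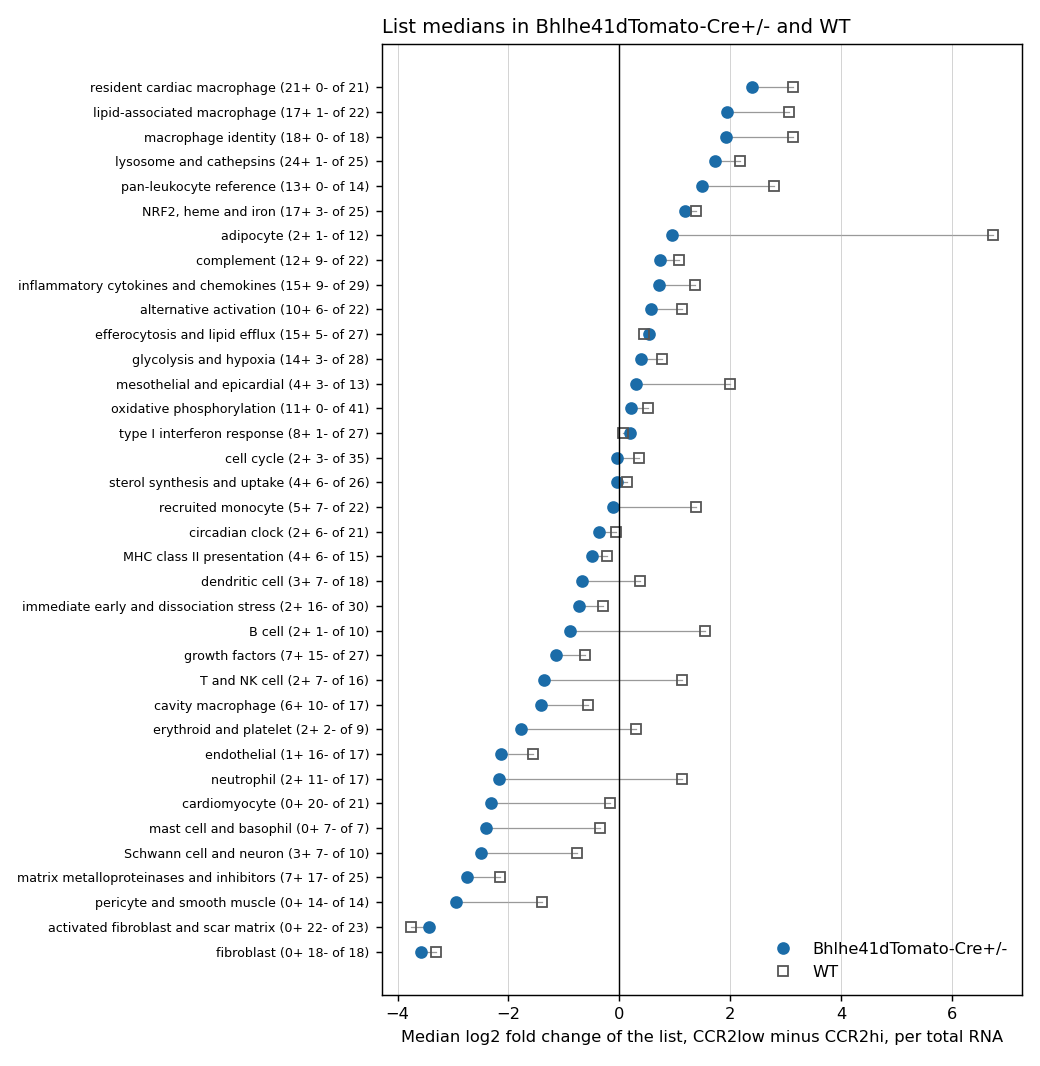
Median log2 gate difference (CCR2low minus CCR2hi, per total RNA) of 36 gene lists in Bhlhe41dTomato-Cre+/- and in WT hearts, with the number of members higher and lower of those tested in the Cre hearts. Resident and lipid-associated macrophage lists lie at 2.40 and 1.95 in the Cre hearts, fibroblast at -3.58; neutrophil (-2.18) and cardiomyocyte (-2.32) lists lie well below their WT medians of 1.14 and -0.16.

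The gate difference was then set against that in WT hearts with an interaction term, the Cre gate difference minus the WT one. It was called for 1884 genes, 710 above 0 (4.74% of those tested) and 1174 below (7.85%), with a median over all genes of -0.18. Per macrophage RNA the balance was the reverse: 5006 of the 14964 genes tested were above 0 and 104 below, with a median of 1.12. Interaction counts of list members on that scale are to be read beside these numbers. The titles name the same gates for both genotypes, but whether they were set alike cannot be seen from the counts. The macrophage identity share of counts was 1.02% ± 0.141 (SD, n = 3) in CCR2hi of Cre hearts and 0.456% ± 0.176 in CCR2hi of WT hearts. In CCR2low it was 3.55% ± 0.169 and 3.87% ± 0.148. Mitochondrial genes took 5.72% to 8.05% of the counts in CCR2hi of WT hearts, beside 2.39% to 3.46% in CCR2hi of Cre hearts. The 5 sex-linked genes listed took a mean of 0.0199% in CCR2low and 0.0125% in CCR2hi of Cre hearts. In WT hearts they took 0.00392% and 0.00733%. The part of these shares in the interaction was not tested as a cause, and genotype cannot be told apart from them. The number of interaction calls per total RNA ranged from 871 without Cre CCR2low library 1 to 2801 over the libraries left out in turn. Without Cre CCR2hi library 3 it was 927, without WT CCR2low library 2 it was 953 and without WT CCR2low library 1 it was 1138, so the number is not well fixed. The balance per total RNA was not fixed either. More genes were above 0 than below without Cre CCR2low library 3 (1738 and 1063), without Cre CCR2hi library 1 (877 and 515), 2 (796 and 533) or 3 (518 and 409), without WT CCR2hi library 1 (887 and 640), and without the low-count filter (1150 and 691).

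Macrophage genes with a smaller gate difference in the Cre hearts included Gpnmb, Fcna, Cd5l and Lyve1. Gpnmb had a log2 difference of 3.78 in Cre hearts and 6.82 in WT hearts, an interaction of -3.05 ± 0.44 (adjusted p = 0.00155). Fcna had 3.48 and 6.77 (interaction -3.29 ± 0.41, adjusted p = 0.000808), Cd5l 3.70 and 7.41 (-3.71 ± 0.61, adjusted p = 0.00316) and Lyve1 1.92 and 5.32 (-3.39 ± 0.48, adjusted p = 0.00143). Levels of Lyve1 and Fcna differed between the genotypes in CCR2low. In that gate of WT hearts Lyve1 averaged 166.3 ± 45.3 CPM and Fcna 229.6 ± 64.6 CPM, far above the Cre CCR2low libraries. WT levels of Gpnmb and Cd5l are not given here. Per macrophage RNA the 4 interactions stayed below 0 and called, at -1.89, -2.18, -2.62 and -2.31. The receptors Mrc1, Stab1 and Mertk showed no called interaction per total RNA (0.08, -0.24 and -0.39); per macrophage RNA that of Mrc1 was above 0 (1.32, adjusted p = 0.0407), and those of Stab1 and Mertk were not called (0.90 and 0.89, adjusted p = 0.0802 and 0.133). Over the resident list 6 of 21 interactions were below 0 and 1 above (3 and 3 per macrophage RNA; 4 and none per total RNA without the pair numbered 3). Over the alternatives run, 3 to 9 of the resident genes were below 0 per total RNA.

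The inflammatory genes Tnf and Il10 also had smaller differences in Cre hearts. Tnf had a log2 difference of 1.55 in Cre and 3.29 in WT hearts (interaction -1.73 ± 0.25, adjusted p = 0.00168), and Il10 1.34 and 3.22 (-1.88 ± 0.28, adjusted p = 0.00185). Il1b had -0.39 and 1.52 (-1.91 ± 0.31, adjusted p = 0.0031). Per macrophage RNA the interactions of Tnf, Il10 and Il1b were -0.47, -0.44 and -0.66 and were not called (adjusted p = 0.366, 0.516 and 0.207).

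Several neutrophil genes had a negative difference in Cre hearts and a positive one in WT hearts per total RNA. The neutrophil list took 0.1895% ± 0.0265 (SD, n = 3) of the counts in CCR2hi of Cre hearts and 0.01635% ± 0.00704 in CCR2hi of WT hearts. In CCR2low it took 0.0907% ± 0.00224 and 0.0555% ± 0.00702. The part of these shares in the change of sign was not tested. S100a8 had a log2 difference of -2.62 in Cre hearts and 1.14 in WT hearts (interaction -3.76 ± 0.73, adjusted p = 0.00844), and Cxcr2 -2.90 and 0.36 (-3.25 ± 0.71, adjusted p = 0.0123). Fpr1, the receptor for formylated peptides of bacteria and mitochondria, had -1.09 and 3.18 (-4.26 ± 0.45, adjusted p = 0.000307), and Lcn2, an iron-sequestering protein of neutrophil granules and inflamed tissue, -2.22 and 1.94 (-4.16 ± 0.73, adjusted p = 0.00499). Of 17 neutrophil genes 11 had an interaction below 0 (10 to 12 over the alternatives run) and none above; per macrophage RNA 3 were below 0. On that scale the interactions of Fpr1 and Lcn2 were called (-2.88 and -2.87, adjusted p = 0.0107 and 0.0219) and those of S100a8 and Cxcr2 were not (-2.16 and -1.77, adjusted p = 0.0822 and 0.084). Fpr1 and Lcn2 had called differences of opposite sign in the genotypes per total RNA.

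Muscle genes formed another group. Of 21 cardiomyocyte genes 16 had an interaction below 0 per total RNA (13 to 17 over the alternatives run), and of 14 mural genes 9 (4 to 11). Per macrophage RNA 5 cardiomyocyte genes were below 0 and 1 above, and no mural gene was called. Mb had a log2 difference of -2.85 in Cre hearts and -0.36 in WT hearts (interaction -2.49 ± 0.37, adjusted p = 0.00184), Tnnt2, cardiac troponin T, -2.20 and -0.16 (-2.04 ± 0.22, adjusted p = 0.000361), and Acta2 -3.57 and -1.72 (-1.85 ± 0.30, adjusted p = 0.0031). Per macrophage RNA the interaction of Mb was -1.30 (adjusted p = 0.0343), and those of Tnnt2 and Acta2 were not called (-0.69 and -0.48, adjusted p = 0.236 and 0.451). Of 18 fibroblast genes 1 had a called interaction per total RNA, below 0 (with the block 1 more, above 0; none without the pair numbered 3), and 2 had one above 0 per macrophage RNA. Of 23 genes of activated fibroblasts 1 was above 0 and 1 below per total RNA. Per macrophage RNA 11 were above 0, beside 5006 of the 14964 genes tested. Col1a1 had -3.57 and -3.19 (interaction -0.38 ± 0.43, adjusted p = 0.582; per macrophage RNA 0.91, adjusted p = 0.179).

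Some genes went the other way. Mki67 had a log2 difference of 1.43 in Cre hearts and -0.71 in WT hearts (interaction 2.14 ± 0.33, adjusted p = 0.00212). Nrg1, the growth factor neuregulin 1, was at 22.8, 12.2 and 15.9 CPM in Cre CCR2low and 10.5, 9.40 and 12.5 CPM in Cre CCR2hi, a difference that was not called (0.65 ± 0.30, adjusted p = 0.0815), though it passed without Cre CCR2low library 2 (0.85, adjusted p = 0.037) or WT CCR2low library 1 (0.66, adjusted p = 0.0398). In WT hearts it averaged 1.53 ± 0.862 CPM in the CCR2low gate and 8.50 ± 1.60 CPM in the other (log2 difference -2.46), and the interaction was 3.12 ± 0.46 (adjusted p = 0.00184). Dio2, which activates thyroid hormone, had a negative difference in either genotype, smaller in the Cre hearts (-2.73 against -5.26; interaction 2.53 ± 0.45, adjusted p = 0.00499). Ahnak, a very large scaffold protein, had 1.42 and -0.92 (interaction 2.34 ± 0.46, adjusted p = 0.0078). Bhlhe41 itself had 1.40 and -0.06 (interaction 1.46 ± 0.35, adjusted p = 0.0186), a call that was lost without Cre CCR2low library 1 (1.36, adjusted p = 0.0539) or WT CCR2low library 2 (1.39, adjusted p = 0.0528). Per macrophage RNA, where the median over all genes was 1.12, the interactions of Mki67, Nrg1, Dio2, Ahnak and Bhlhe41 were also above 0, at 3.59, 4.38, 3.96, 3.72 and 2.88.

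**Figure D5:**
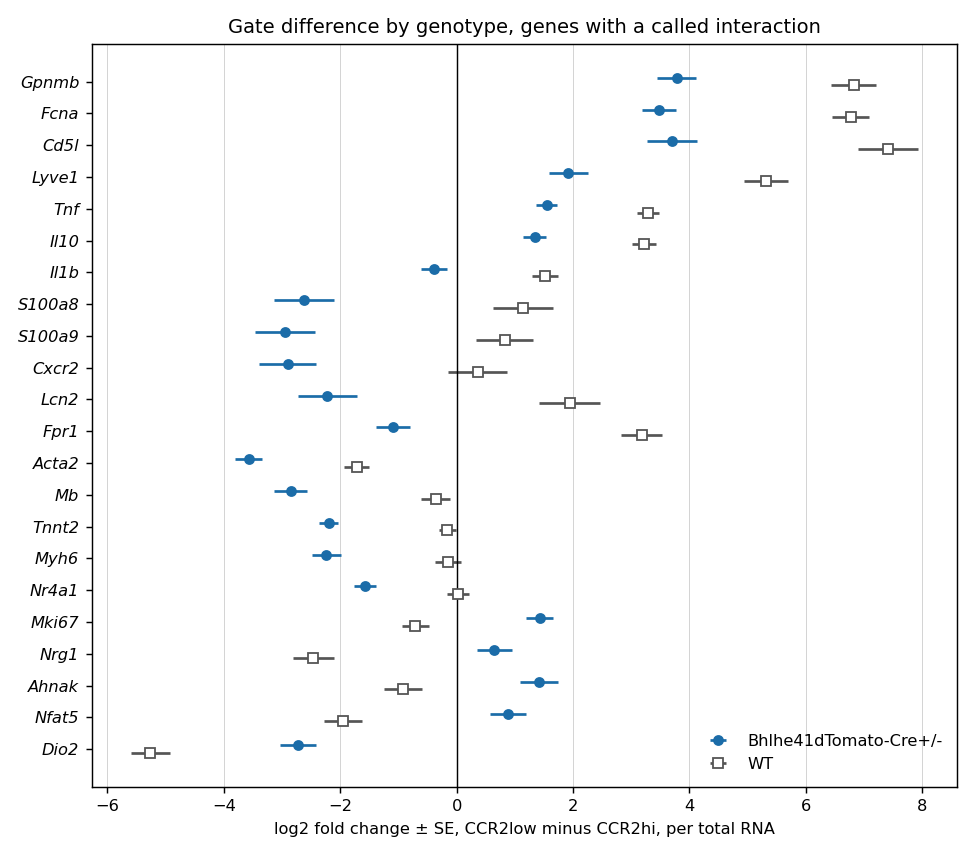
Log2 gate difference per total RNA, with SE bars, in Bhlhe41dTomato-Cre+/- (n = 3 per gate) and WT hearts (n = 3 per gate) for 22 genes with a called interaction. Neutrophil genes such as S100a8 lie below 0 in the Cre hearts (-2.62) and above 0 in WT hearts (1.14), while Gpnmb is above 0 in both, at 3.78 and 6.82.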

How the data were processed

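The authors deposited 2 tables for the 12 libraries: RSEM expected counts, given as whole numbers, and TPM, which is length-scaled abundance. Per the submitters' processing notes, CASAVA 1.8, STAR 2.4.0j and RSEM were used with build mm10. Each tool's role, the annotation, the RSEM version and any use of strand were not given in the sources used here. Columns headed WT were tied to the samples whose descriptions give the column name. Those headed KD, a name that no label explains, were tied to the Cre samples whose titles have their gate and number. KD was the only genotype name besides WT in the column names. Gene positions come from GENCODE M21 (GRCm38), where 99.82% of the gene IDs were found.

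All 12 libraries (4 groups of 3) were fitted together in edgeR 4.0.16 (R 4.3.3): low-count filter, trimmed-mean scaling, robust quasi-likelihood test with 8 residual degrees of freedom, and Benjamini-Hochberg adjustment over all genes tested, called under 0.05. The scale per macrophage RNA used the 18 macrophage identity genes as reference. The interaction is the Cre gate difference minus the WT one. Every adjusted p in the text is from this edgeR test unless another is named. DESeq2 1.42.0 and limma 3.58.1 were run as alternatives, as were other scalings and filters, single libraries left out, the pair numbered 3 left out and a replicate block. The fitting code was tested on simulated data. Shares of counts were compared by exact permutation over libraries.

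Same-numbered Cre libraries deviated together from their group means (correlations 0.23, 0.12 and 0.40), so the numbers were taken to pair them in the alternatives. The main fit, and so its adjusted p-values, did not use this pairing. Cre libraries of different number gave -0.35 to 0.22, so only the pair numbered 3 stood clearly apart. Same-numbered WT libraries did not deviate together (-0.06, 0.03 and -0.05).

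The gene lists and members were chosen with earlier results of these data known. Genes are named by rule: the anchors of each list, the 8 largest changes per direction among called genes with a mean of at least 5 CPM and gates that do not overlap, the 5 largest interactions per direction among such called genes, the 5 highest TPM per gate, and the 2 most changed called members of each list. Where 2 genes share near-identical sequence or overlap, counting may have split their reads.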

Additional observations from a re-analysis of the deposited data

Results flagged for a closer look

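The gate difference per total RNA differed between Bhlhe41dTomato-Cre+/- and WT hearts for 1884 genes by the interaction test (edgeR's quasi-likelihood test). The genes with the largest interactions that were also called in the Cre hearts were as follows, each on the log2 scale. Below 0 were Marco (-4.92, adjusted p = 0.0184), Itih4 (-4.44, adjusted p = 0.00704), Alox15 (-4.27, adjusted p = 0.042), Fpr1 (-4.26) and Lcn2 (-4.16). Marco had a log2 gate difference of 10.2 in WT hearts, where its CCR2hi libraries were at 0.208 ± 0.188 CPM (SD, n = 3), so that a few counts set the size. The interaction of Marco was not called without Cre CCR2hi library 2 (-4.30), Cre CCR2hi library 3 (-4.77) or WT CCR2hi library 1 (-4.14), and that of Alox15 was not called without any 1 of the 6 Cre libraries (-4.33 to -3.84) or any WT CCR2hi library (-4.67 to -3.90).

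Above 0 were Nfat5 (2.83), Dio2 (2.53), Prpf39 (2.45), Ahnak (2.34) and Smg1 (2.31). Nfat5, Prpf39 and Smg1 were each higher in CCR2low of Cre hearts, but that gate difference was not called for any of the 3 without Cre CCR2low library 1 (0.64, 0.71 and 0.98), Cre CCR2low library 2 (0.73, 0.95 and 0.93) or Cre CCR2hi library 3 (0.69, 0.89 and 0.99). Nfat5 lost it also without Cre CCR2hi library 2 (0.95), and Prpf39 without Cre CCR2hi library 1 (1.11). Itih4 kept its gate difference without any single library but not without the pair numbered 3 (-2.08, adjusted p = 0.0563). Per macrophage RNA the interactions kept their sign and were called for all 10 genes: Marco -3.84, Itih4 -3.09, Alox15 -3.19, Fpr1 -2.88, Lcn2 -2.87, Nfat5 4.19, Dio2 3.96, Prpf39 3.76, Ahnak 3.72 and Smg1 3.65.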

How the results depend on the processing

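Of 9416 values of 157 genes recomputed under alternatives, 8904 kept their side of the threshold, 389 were no longer called and 123 became called. No value that was called in the main fit or in the alternative changed sign. Uncalled values could change sign, as that of Ccr2 did per total RNA (-0.26 to 0.14). The 8094 calls per total RNA became 4928 with a 1.5-fold minimum and ranged from 7095 to 8362 without single libraries; 7359 were called without the pair numbered 3. Library size scaling gave 2533 higher and 5384 lower (32.0% higher, beside 46.1%), the TPM fit 2146 and 4660 (31.5%), and DESeq2 8454 calls. Per macrophage RNA 12665 to 13977 genes were called without single libraries, and the number higher in CCR2low, 86, was 58 without the pair numbered 3, 131 without WT CCR2hi library 1, 116 in the 6 Cre libraries alone and 201 with the pan-leukocyte reference. Interaction calls per total RNA, 1884, ranged from 871 to 2801 without single libraries and were 478 with the 1.5-fold minimum and 1091 in the TPM fit. Per macrophage RNA they were 5110 (5006 above 0), with 1296 to 8849 without single libraries and 2745 without the pair numbered 3. The cause of these shifts was not tested. With the replicate block the counts were 8244, 13425, 2156 and 5610, and beyond the list counts given in the report it changed no call of a named gene per total RNA. Each share of counts recomputed (macrophage, neutrophil, fibroblast and cardiomyocyte lists) kept its direction without any 1 library and on TPM. Depth limits genes near a few counts, such as Vsig4 and Marco in CCR2hi.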
